A study of Homo sapiens with 24 samples.

Results

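The let-7 family guide strands were followed in small RNA libraries of SBC-3, a cell line from human small cell lung cancer. The set held 10 of the 2652 mature miRNAs in the tables: let-7a-5p (MIMAT0000062), let-7b-5p (MIMAT0000063), let-7c-5p (MIMAT0000064), let-7d-5p (MIMAT0000065), let-7e-5p (MIMAT0000066), let-7f-5p (MIMAT0000067), let-7g-5p (MIMAT0000414), let-7i-5p (MIMAT0000415), miR-98-5p (MIMAT0000096) and let-7a-3p (MIMAT0004481). Members were taken by identifier, and all 10 passed the filter on low counts that 626 miRNAs passed. There were 24 libraries in 8 groups of 3. The cells, wild type by their label, were reverse transfected with a small interfering RNA (siRNA) or an antisense oligonucleotide (ASO), at 10 nM, and collected 72 h later. Of the siRNA groups, siCtrl received a control siRNA, siSFPQ-2 and siSFPQ-3 different siRNAs against SFPQ, and siNONO-3 and siNONO-4 different siRNAs against NONO. Of the ASO groups, ASO-Ctrl received a control ASO, and ASO-NEAT1-1047 and ASO-NEAT1-1473 different ASOs against NEAT1. All groups therefore went through transfection, and there was no untransfected group. The labels do not say whether replicates were separate cultures, so p-values measure the spread between these samples, which may be technical.

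A let-7 hairpin is cut from a longer transcript by Drosha and DGCR8 in the nucleus and by Dicer in the cytoplasm, and the 5p strand is usually the guide that an Argonaute protein keeps. Bases 2 to 8 of the guide, the seed, pair with target messages, and known let-7 targets include RAS, HMGA2 and MYC. The family is known for rising with differentiation and for being blocked by LIN28, and it is often low in lung cancer. SFPQ and NONO are partner RNA-binding proteins of the nucleus, and NEAT1 is the long noncoding RNA that scaffolds the paraspeckles in which they gather. The design asked what losing each of them does to miRNAs. The small RNA tables hold none of the 3 transcripts, so the knockdowns themselves were not checked here.

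The 10 mature sequences are shown because members with near-equal counts differ from each other by few bases. They come from RefSeq, build GRCh38.p14, where all 10 members were matched by position, and the capitals mark the seed.
let-7a-5p: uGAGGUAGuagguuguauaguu
let-7b-5p: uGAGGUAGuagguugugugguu
let-7c-5p: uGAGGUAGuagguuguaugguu
let-7d-5p: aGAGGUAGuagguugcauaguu
let-7e-5p: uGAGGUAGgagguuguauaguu
let-7f-5p: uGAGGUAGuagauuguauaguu
let-7g-5p: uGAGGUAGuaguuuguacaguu
let-7i-5p: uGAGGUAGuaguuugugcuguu
miR-98-5p: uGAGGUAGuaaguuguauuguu
let-7a-3p: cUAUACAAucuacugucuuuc
The 9 sequences from 5p arms share the seed GAGGUAG. Counted from the 5′ end of let-7a-5p, let-7c-5p differed by A19G, let-7e-5p by U9G and let-7f-5p by G12A. Other members differed by 2 substitutions, which were A17G and A19G in let-7b-5p, U1A and U16C in let-7d-5p, G12U and U18C in let-7g-5p, and G11A and A19U in miR-98-5p. let-7i-5p had 4, namely G12U, A17G, U18C and A19U.

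let-7a-3p is no let-7 guide by its sequence or its level. It has the seed UAUACAA, is the other arm of the let-7a hairpin and had on average 1.15% of the counts of let-7a-5p. Both arms are shown in capitals in the MIRLET7A3 hairpin, at chr22:46112749-46112822 on the plus strand of GRCh38.p14.
MIRLET7A3: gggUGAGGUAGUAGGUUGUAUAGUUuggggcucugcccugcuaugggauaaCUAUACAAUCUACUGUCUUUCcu
This member is therefore described below as the let-7a 3p arm product, beside the guides.

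The hairpins lie in transcripts of several kinds (GENCODE release 29, on hg38). The kept copy of let-7a-5p, at chr22:46112752-46112773, and let-7b-5p, at chr22:46113691-46113712, are exonic in the noncoding gene MIRLET7BHG. Further copies of let-7a-5p are intronic in MIR100HG on chromosome 11 and in AL158152.2 on chromosome 9. AL158152.2 also holds let-7d-5p, at chr9:94178841-94178862, and the kept copy of let-7f-5p. The other guides are intronic: let-7c-5p in MIR99AHG on chromosome 21, let-7e-5p in SPACA6 on chromosome 19, let-7g-5p in WDR82 on chromosome 3, let-7i-5p in AC048341.1 at chr12:62603691-62603712, and miR-98-5p with the other copy of let-7f-5p in HUWE1 on chromosome X. Copies of the same mature miRNA had between 98.0% and 100% of the counts of the kept copy in each library, so the data do not show which copy a read came from.

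Near-equal counts also linked different members. let-7a-5p, let-7b-5p, let-7c-5p, let-7e-5p, let-7f-5p, let-7g-5p and miR-98-5p formed a chain in which neighbouring members differed by at most 10% in every library, and they are treated as sharing reads. On average, let-7b-5p had 92.4% of the let-7a-5p count, let-7c-5p 98.0%, let-7e-5p 97.0%, let-7f-5p 98.4%, let-7g-5p 91.1% and miR-98-5p 90.1%. The pair farthest apart, let-7a-5p and miR-98-5p, differed by up to 13.6%. Across the 24 libraries, the lowest Pearson correlation between log2 levels of these 7 was 0.999, that of let-7a-5p with miR-98-5p. The 7 were therefore close to a single measurement, and each count of 10 members below holds 4 separable ones: the sharing set, let-7d-5p, let-7i-5p and let-7a-3p. let-7d-5p had 0.486% of the let-7a-5p count and let-7i-5p 1.03%. Their sequences are no farther from the sharing set than some of its members are from each other, since let-7d-5p differs from let-7a-5p, and let-7i-5p from let-7g-5p, by 2 bases. Only let-7d-5p differs at base 1.

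Library totals ran from 2038382 to 4279644 counts. Raw counts per library were 43585 to 123225 for let-7a-5p, 395 to 1900 for let-7i-5p in the siRNA groups and 305 to 859 in the ASO groups, 180 to 629 for let-7d-5p, and 387 to 1369 for let-7a-3p. The last 3 thus rest on far fewer counts. Read alone, let-7a-5p held 1.52% to 3.16% of a library's miRNA counts. By mean level it ranked at 14 of the 626 tested miRNAs, let-7a-3p at 138, let-7i-5p at 143 and let-7d-5p at 200. The SBC-3 label was set beside miRNA markers. The 5 neuroendocrine and neural markers had a summed level of 84490 to 115388 CPM (counts scaled to a library of 1000000 counts), mostly miR-9-5p and miR-7-5p. However, miR-375-3p was nearly absent from the controls, at 1 to 3 counts in siCtrl and 1 to 4 in ASO-Ctrl, and had at most 39 counts in any library. Sums for other cells were lower: blood summed to 35.1 to 175 CPM (2 of 3 matched markers tested), muscle to 147 to 594, endothelium to 692 to 1401 and stroma to 88.5 to 361. Taken singly, miR-126-3p (endothelium), miR-1-3p (muscle), miR-143-3p (stroma) and miR-142-3p (blood) had higher means than miR-375-3p in every group. The liver marker miR-122-5p was at 0 in every library. In bulk samples, fewer cells of a type and less RNA per cell cannot be told apart.

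The balance of the let-7a arms varied within groups, and a pair of libraries with a low value was singled out. The let-7a-3p count was 0.558% of the let-7a-5p count in siCtrl replicate 1, against 1.71% and 1.67% in the other siCtrl libraries. It was 0.819% in ASO-NEAT1-1047 replicate 3, against 1.61% and 1.40% in that group. Other libraries were as far from their groups, such as siNONO-4 replicate 1, at 1.64% against 0.888% and 0.752%. In every group except siCtrl the value was highest in replicate 1. Results are also given without siCtrl replicate 1 or without the pair where they differ, a choice made after seeing the data.

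Levels below are CPM on library sizes scaled by edgeR's TMM method. let-7a-5p, standing for the sharing set, was at 37333, 23067 and 30225 CPM in siCtrl. It was at 17615, 13756 and 22367 CPM in siSFPQ-2 and at 11180, 16351 and 17390 CPM in siSFPQ-3. All 6 SFPQ libraries thus lay below the lowest siCtrl library, the nearest pair being 22367 and 23067 CPM. In siNONO-3 it was at 21074, 23258 and 30631 CPM and in siNONO-4 at 18134, 28246 and 31138 CPM, both overlapping siCtrl. The ASO groups overlapped each other too, with 23196, 29084 and 31125 CPM in ASO-Ctrl, 21485, 24711 and 36032 CPM in ASO-NEAT1-1047, and 19049, 21323 and 26839 CPM in ASO-NEAT1-1473. From high to low, the group means ± SD (n = 3) were 30208 ± 7133 CPM in siCtrl, 27802 ± 4117 in ASO-Ctrl, 27409 ± 7640 in ASO-NEAT1-1047, 25839 ± 6828 in siNONO-4, 24988 ± 5008 in siNONO-3, 22403 ± 4006 in ASO-NEAT1-1473, 17913 ± 4313 in siSFPQ-2 and 14974 ± 3326 in siSFPQ-3. Every pair of neighbours in this order overlapped in its libraries.

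let-7d-5p, whose hairpin is transcribed with those of let-7a-1 and let-7f-1, followed nearly the same order. Its 3 siCtrl libraries were at 171, 109 and 126 CPM, those of siSFPQ-2 at 82.7, 76.1 and 91.5 CPM, and those of siSFPQ-3 at 40.7, 71.9 and 86.1 CPM. The SFPQ libraries were again all below siCtrl. Group means were 141 ± 28.7 CPM in ASO-NEAT1-1047, 135 ± 31.9 in siCtrl, 132 ± 18.6 in ASO-Ctrl, 129 ± 33.7 in siNONO-4, 124 ± 18.9 in siNONO-3, 120 ± 27.8 in ASO-NEAT1-1473, 83.4 ± 7.75 in siSFPQ-2 and 66.2 ± 23.2 in siSFPQ-3 (SD, n = 3). In this order the libraries of ASO-NEAT1-1473 and siSFPQ-2 did not overlap, and those of every other pair of neighbours did.

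let-7i-5p, the guide with its own locus on chromosome 12, had another order. It was at 373, 263 and 259 CPM in siCtrl, at 123, 125 and 145 CPM in siSFPQ-2 and at 184, 190 and 176 CPM in siSFPQ-3. Both SFPQ groups were below every siCtrl library, and every siSFPQ-3 library was above every siSFPQ-2 library. In the NONO groups it was at 248, 302 and 358 CPM in siNONO-3 and at 287, 467 and 479 CPM in siNONO-4. Both overlapped siCtrl, whose replicate 1, at 373 CPM, was above every siNONO-3 library. It was at 209, 244 and 234 CPM in ASO-Ctrl, 191, 224 and 251 CPM in ASO-NEAT1-1047, and 133, 183 and 196 CPM in ASO-NEAT1-1473. The control groups did not overlap each other, siCtrl being higher. Group means fell from 411 ± 108 CPM in siNONO-4 through 303 ± 54.9 in siNONO-3, 298 ± 64.8 in siCtrl, 229 ± 17.7 in ASO-Ctrl, 222 ± 30.0 in ASO-NEAT1-1047, 183 ± 7.50 in siSFPQ-3 and 171 ± 33.0 in ASO-NEAT1-1473 to 131 ± 11.9 in siSFPQ-2 (SD, n = 3). Of the neighbours, siCtrl and ASO-Ctrl, and ASO-NEAT1-1047 and siSFPQ-3, did not overlap.

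let-7a-3p, the arm that is usually discarded, separated the SFPQ groups most clearly. It was at 208, 394 and 505 CPM in siCtrl, at 174, 122 and 153 CPM in siSFPQ-2 and at 136, 133 and 131 CPM in siSFPQ-3. It was at 305, 277 and 360 CPM in siNONO-3 and at 298, 251 and 234 CPM in siNONO-4. The ASO groups had 352, 258 and 319 CPM (ASO-Ctrl), 346, 346 and 295 CPM (ASO-NEAT1-1047) and 336, 341 and 369 CPM (ASO-NEAT1-1473). Each SFPQ library was below every library of every other group, and siCtrl replicate 1 was the lowest of the rest. Group means were 369 ± 150 CPM in siCtrl, 349 ± 17.5 in ASO-NEAT1-1473, 329 ± 29.4 in ASO-NEAT1-1047, 314 ± 42.4 in siNONO-3, 309 ± 47.6 in ASO-Ctrl, 261 ± 33.1 in siNONO-4, 150 ± 26.2 in siSFPQ-2 and 133 ± 2.49 in siSFPQ-3 (SD, n = 3). Only siNONO-4 and siSFPQ-2 were neighbours without overlap.

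**Figure D1:**
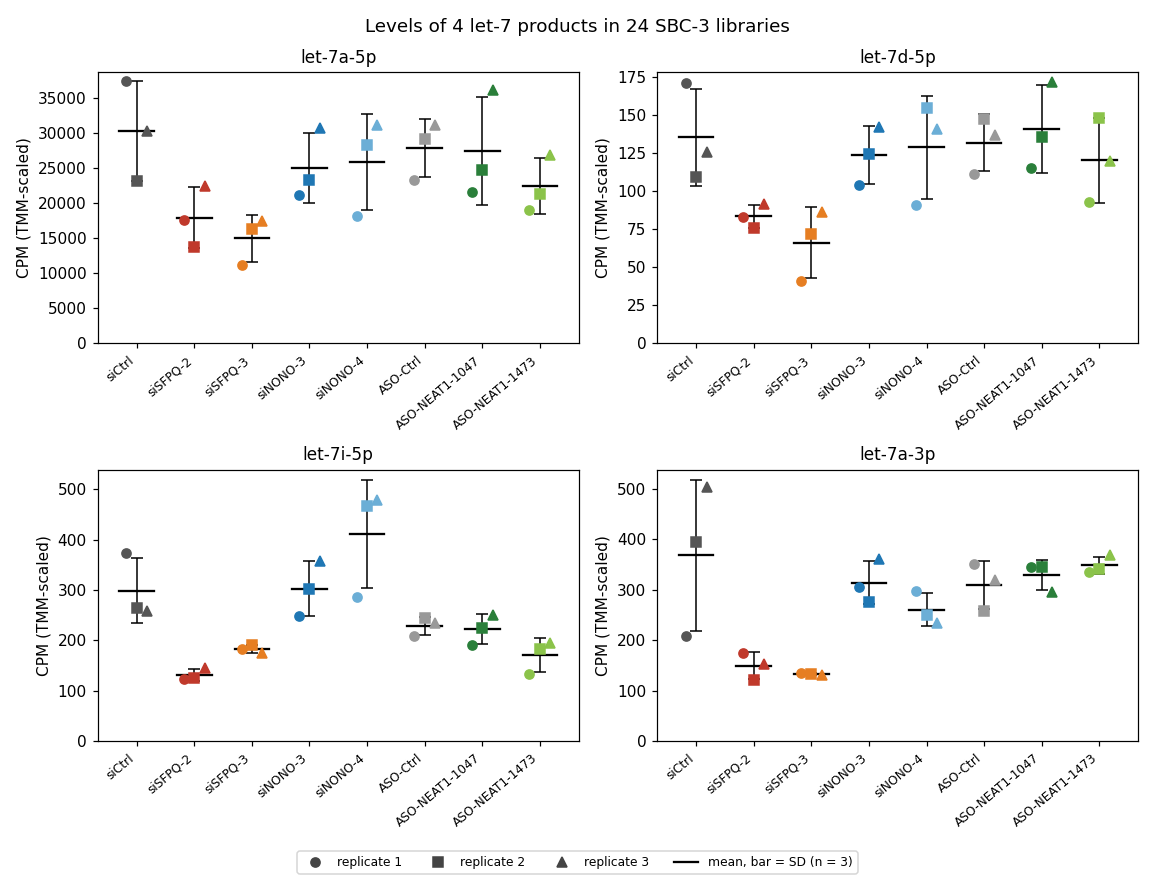
TMM-scaled CPM (linear axes from 0) of let-7a-5p, let-7d-5p, let-7i-5p and let-7a-3p in each of 24 libraries by group, with marker shape for the replicate number, a horizontal line for the mean and bars for the SD (n = 3). The 6 SFPQ libraries lie below the siCtrl libraries in every panel, and let-7i-5p is highest in siNONO-4, at 287 to 479 CPM.

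In the SFPQ knockdown, taken as the mean of siSFPQ-2 and siSFPQ-3 against siCtrl, all 10 members were called lower. The background was 22.7% of the 626 tested miRNAs called lower (142, with 160 higher). Each member was also below every siCtrl library in 6 of 6 libraries, but the share of all tested miRNAs separated in this way was not counted. The 10 count as 4 separable changes because of the shared reads. Changes are log2 fold changes ± standard error. let-7a-5p fell by 0.88 (log2 fold change -0.88 ± 0.21, edgeR adjusted p = 0.00136), to 0.542 of its control level. The other 6 sharing members had values between -0.92 and -0.87. let-7d-5p changed by -0.86 ± 0.23 (edgeR adjusted p = 0.00321) and let-7i-5p by -0.95 ± 0.18 (edgeR adjusted p = 0.000189). let-7a-3p changed by -1.38 ± 0.19 (edgeR adjusted p = 3.74e-06), to 0.383 of its control level. The median over the 10 members was -0.89 and over all tested miRNAs 0.02. Without siCtrl replicate 1, all 10 still passed, with let-7a-5p at -0.74, let-7d-5p at -0.69, let-7i-5p at -0.79 and let-7a-3p at -1.71.

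The scaling moved with the groups. TMM factors were 1.09 to 1.36 in the SFPQ libraries and 0.846 to 0.969 in siCtrl. On plain library totals the median of all tested miRNAs in the SFPQ knockdown moved to 0.47, the split of calls to 67 lower and 252 higher, and the members' median to -0.44. On that scale 9 of the 10 members passed, and let-7d-5p was at -0.41 with an edgeR adjusted p of 0.103. On totals of the added spike-in oligonucleotides the median of all tested miRNAs was 0.21, the split was 90 lower and 182 higher, the members' median was -0.69 and all 10 passed. A change of scale shifts all miRNAs of a comparison by about the same amount. The distance of the members below the median miRNA was therefore nearly fixed over the 3 scales, and its agreement is no separate support. let-7a-3p passed on each scale, at -0.96 with library totals and -1.23 with spike-in totals. Spike-in counts were 2.25% to 4.68% of the miRNA counts of a library. Of the marker miRNAs tested in the SFPQ knockdown, those called lower were 2 of 5 neuroendocrine and neural, 2 of 3 muscle, 1 of 1 endothelial, 1 of 2 stromal and 0 of 2 blood markers. This stands beside 22.7% of all tested miRNAs called lower. The neural markers miR-9-5p and miR-7-5p fell by 0.65 and 0.69 on the log2 scale (edgeR adjusted p = 0.000169 and 7.88e-05). On library totals, the mean of miR-7-5p was 14497 CPM in siCtrl, 9463 in siSFPQ-2 and 15634 in siSFPQ-3, so it was not lower with siSFPQ-3. The marker calls are on the TMM scale, whereas the marker levels below are on library totals. miR-375-3p, a neuroendocrine marker, was the 1 marker called higher, at a mean of 0.588 CPM of library totals in siCtrl, 5.77 in siSFPQ-2 and 8.16 in siSFPQ-3. The summed neuroendocrine and neural markers ran from 89200 to 108570 CPM of library totals in siCtrl, from 84490 to 93350 in siSFPQ-2 and from 84848 to 96942 in siSFPQ-3. The summed muscle markers ran from 281 to 348 CPM of library totals in siCtrl, from 147 to 225 in siSFPQ-2 and from 174 to 256 in siSFPQ-3. The endothelial marker, miR-126-3p, ran from 719 to 767, from 702 to 744 and from 692 to 840 CPM in the same groups, which overlapped on this scale. The stromal markers summed to 122 to 141, 88.5 to 118 and 124 to 130 CPM, and the blood markers to 44.2 to 101, 70.3 to 85.5 and 35.1 to 79.2 CPM. Their part in the let-7 values was not tested.

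Taken singly, all 10 members fell with each siRNA. For siSFPQ-2 the background was 15.5% called lower. Its largest changes were -1.30 ± 0.24 for let-7a-3p and -1.19 ± 0.22 for let-7i-5p, while the other 8 lay between -0.76 and -0.70. let-7d-5p passed by the least (edgeR adjusted p = 0.0423), and did not pass without siCtrl replicate 1 (edgeR adjusted p = 0.0995). Without siSFPQ-2 replicate 2, 2 members passed, let-7i-5p and let-7a-3p. On library totals the same 2 members passed for siSFPQ-2, with let-7a-5p at -0.38.

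For siSFPQ-3 the background was 21.7% called lower. let-7a-3p again changed most, by -1.47 ± 0.24. In the sharing set the values ran down to -1.07 for miR-98-5p, with let-7a-5p at -1.01, and let-7d-5p was at -1.03. let-7i-5p changed least, by -0.70 ± 0.22 (edgeR adjusted p = 0.0110). Without siCtrl replicate 1, let-7i-5p was at -0.50 (edgeR adjusted p = 0.0525) and the other 9 passed. On spike-in totals only let-7a-3p passed (-1.06), with let-7a-5p at -0.55 and let-7i-5p at -0.23. On library totals 4 members passed, namely let-7a-3p and members of the sharing set other than let-7a-5p, which itself did not pass.

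**Figure D2:**
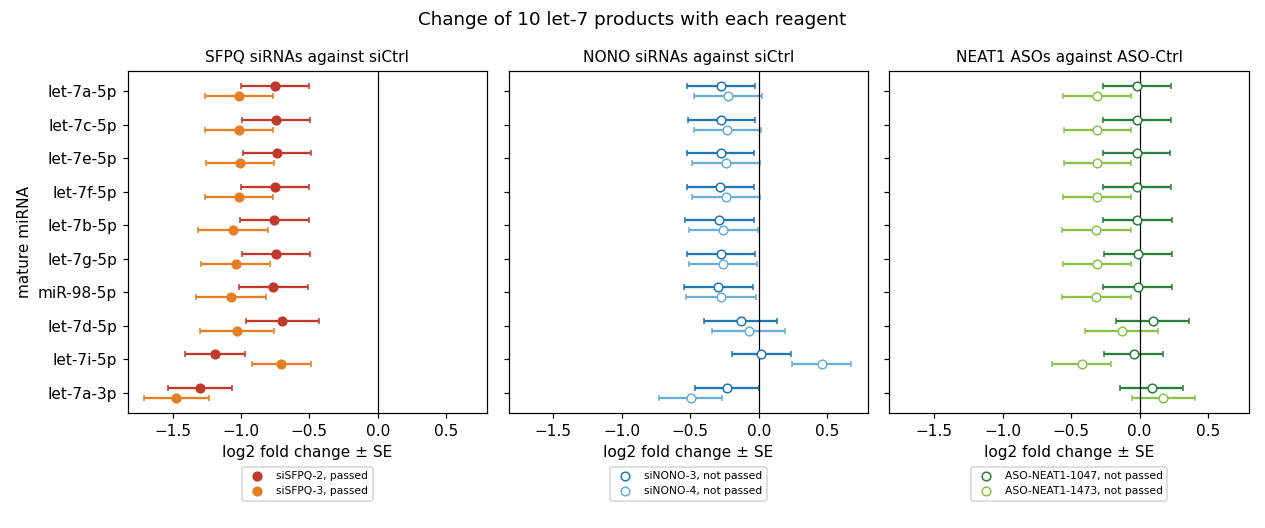
Log2 fold change ± standard error of the 10 let-7 products (vertical axis) with each reagent against its control group, in 3 panels for the SFPQ siRNAs, the NONO siRNAs and the NEAT1 ASOs. Filled points passed the edgeR test at an adjusted p under 0.05, which all 20 SFPQ points did and no NONO or NEAT1 point did.

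**Figure D3:**
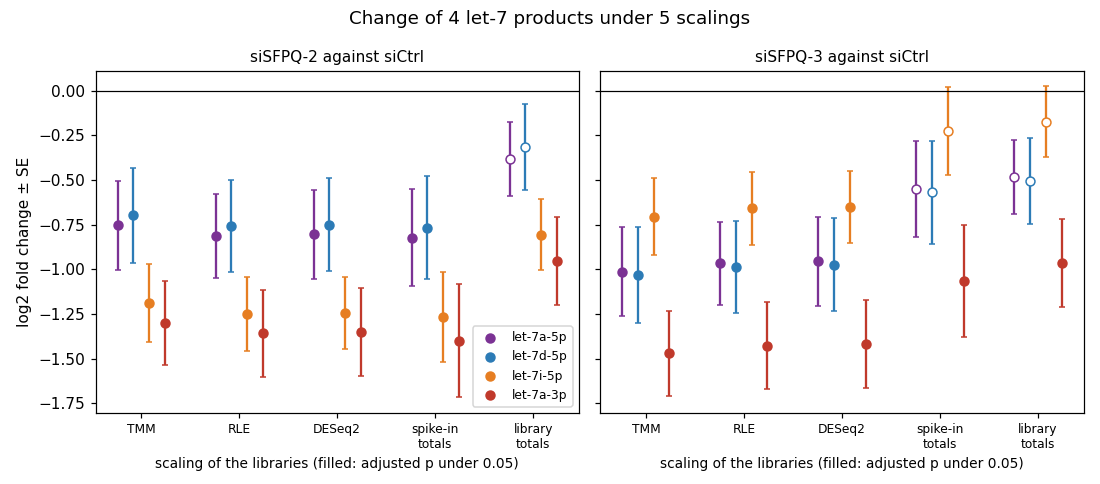
Log2 fold change ± standard error (vertical axis) of let-7a-5p, let-7d-5p, let-7i-5p and let-7a-3p for each SFPQ siRNA against siCtrl under 5 scalings of the libraries (horizontal axis), filled where the adjusted p was under 0.05. let-7a-3p is filled under all 5 scalings in both panels, whereas let-7a-5p and let-7d-5p are open on library totals for both siRNAs and on spike-in totals for siSFPQ-3. let-7i-5p is open on library totals and spike-in totals for siSFPQ-3.

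Set directly against each other, siSFPQ-3 and siSFPQ-2 differed in 0 of 10 members (background 0.639%, 4 of 626). At an unadjusted p under 0.05 there was 1 member in edgeR's test (40 of 626 miRNAs), and DESeq2 also called 0. That member was let-7i-5p, 0.49 ± 0.22 higher with siSFPQ-3, with an edgeR adjusted p of 0.660 and a 95% interval of 0.03 to 0.94. let-7a-5p differed by -0.26 (interval -0.78 to 0.27), let-7d-5p by -0.33 and let-7a-3p by -0.17 (interval -0.67 to 0.32). These differences turned positive on spike-in totals, where the median of all tested miRNAs was 0.46.

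In the NONO knockdown, 0 of the 10 members passed in edgeR (background 1.6%, 10 of 626), 0 had an unadjusted p under 0.05 against 74 of all miRNAs, and DESeq2 called 0. let-7a-5p was at -0.25 ± 0.21 (95% interval -0.70 to 0.20). let-7d-5p was at -0.10, let-7i-5p at 0.24 ± 0.19 (interval -0.16 to 0.64), the member with a positive value, and let-7a-3p at -0.36 ± 0.20 (interval -0.78 to 0.05). The let-7a-3p result depended on a control library. Without siCtrl replicate 1, it was -0.72 and passed (edgeR adjusted p = 0.0469).

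The NONO siRNAs gave these values singly. siNONO-3 passed in 0 members (background 2.56%), with 0 at an unadjusted p under 0.05 and 0 in DESeq2, and let-7i-5p was at 0.02 ± 0.22. siNONO-4 also passed in 0 (background 0.958%), with 0 in DESeq2, and 2 members had an unadjusted p under 0.05. These were let-7i-5p, at 0.46 ± 0.22, and let-7a-3p, at -0.50 ± 0.23, each with an edgeR adjusted p of 0.470. Without siCtrl replicate 1, let-7a-3p passed for siNONO-4 (-0.81, edgeR adjusted p = 0.0360), and let-7i-5p was at 0.64 (edgeR adjusted p = 0.109).

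In the NEAT1 knockdown, 0 of 10 members passed against ASO-Ctrl, as did 0 of all 626 miRNAs (background 0%). No member and 19 of all miRNAs had an unadjusted p under 0.05, and DESeq2 called 0 members. let-7a-5p was at -0.17 ± 0.21 (95% interval -0.62 to 0.28), let-7i-5p at -0.23 ± 0.18 (interval -0.63 to 0.16) and let-7a-3p at 0.13 ± 0.20 (interval -0.30 to 0.56). Each ASO alone passed in 0 members, none with an unadjusted p under 0.05 (background 0% for both, DESeq2 0 for both). Values ran from -0.04 to 0.10 for ASO-NEAT1-1047 and from -0.42, for let-7i-5p, to 0.17, for let-7a-3p, for ASO-NEAT1-1473. The control groups, ASO-Ctrl against siCtrl, differed in 0 members (background 0.479%, unadjusted 0, DESeq2 0). let-7i-5p had the lowest value there, -0.38 ± 0.22 (interval -0.84 to 0.07).

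Compared directly, the SFPQ knockdown was lower than the NONO knockdown in all 10 members (background 26.8% called lower). let-7i-5p differed most, by -1.19 ± 0.15 (edgeR adjusted p = 8.08e-07), with 6 of 6 SFPQ libraries below every NONO library. let-7a-3p differed by -1.02 ± 0.17, also in 6 of 6 libraries, and let-7d-5p by -0.76 ± 0.19, in 5 of 6. The sharing set differed by -0.64 to -0.61, with let-7a-5p below every NONO library in 5 of 6. The share of all tested miRNAs with such a separation of libraries was not counted. Scaled by library totals or by spike-in totals, 3 members passed, namely let-7d-5p, let-7i-5p and let-7a-3p, and let-7a-5p was at -0.30 and -0.35.

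The SFPQ change against siCtrl was also tested against the NEAT1 change against ASO-Ctrl, which share no libraries. let-7a-3p passed, 1 of 10 members (background 11.3% called lower), with a difference of -1.52 ± 0.29 (edgeR adjusted p = 0.000337). let-7i-5p differed by -0.71 ± 0.26 (edgeR adjusted p = 0.0524), let-7d-5p by -0.85 ± 0.33 (edgeR adjusted p = 0.0612) and let-7a-5p by -0.72 ± 0.30 (edgeR adjusted p = 0.0833). DESeq2 called let-7d-5p and let-7i-5p as well, and with the replicate number as a block all 10 members passed in edgeR. The count also rested on single libraries, since 10 members passed without siCtrl replicate 2, and 8 without siSFPQ-2 replicate 3 or without ASO-NEAT1-1047 replicate 1.

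Ratios inside a library do not depend on its scaling. let-7i-5p had 1.00%, 1.14% and 0.856% of the let-7a-5p count in siCtrl, 0.701%, 0.906% and 0.646% in siSFPQ-2, and 1.64%, 1.17% and 1.01% in siSFPQ-3. The SFPQ siRNAs thus lay on different sides, without overlap between them. Over both, the mean log2 ratio differed from siCtrl by -0.04 (exact two-sided permutation test, p = 0.929, or 0.929 adjusted over the 2 ratios tested). It differed by -0.42 for siSFPQ-2 and by 0.33 for siSFPQ-3 (exact permutation p = 0.200 each, where 3 against 3 cannot go below 0.10). In the NONO groups the ratio was 1.22% ± 0.0721 (SD, n = 3) in siNONO-3 and 1.54% to 1.65% in siNONO-4, each library above every siCtrl library, and in the ASO groups it was 0.697% to 0.906%.

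let-7a-3p had 0.558%, 1.71% and 1.67% of the let-7a-5p count in siCtrl, 0.988%, 0.888% and 0.686% in siSFPQ-2, and 1.21%, 0.812% and 0.751% in siSFPQ-3. The SFPQ libraries lay between siCtrl replicate 1 and the other siCtrl libraries. The mean log2 ratio differed by -0.42 (exact two-sided permutation test of 6 against 3, p = 0.310, or 0.619 adjusted over the 2 ratios). The smallest p that this design allows is 0.0238. Without siCtrl replicate 1 the difference was -0.95 (exact permutation p = 0.0714, the smallest that 6 against 2 can give). Without siCtrl replicate 2 it was -0.14 and without siCtrl replicate 3 -0.16 (exact permutation p = 0.714 each). The difference between the arms was therefore not past the test, and leaving out any of the 3 control libraries moved it by more than 1.5 times.

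Within the sharing set, small differences followed the reagents, a pattern picked after its values were seen and not tested. let-7b-5p had 89.0% to 90.7% of the let-7a-5p count in siSFPQ-3 and 90.3% to 91.2% in siNONO-4, against 91.3% to 94.5% in the other 6 groups. let-7g-5p and miR-98-5p were likewise lowest in those groups, miR-98-5p at 86.4% to 88.0% against 88.6% to 92.7% elsewhere. By group mean, they are also the groups in which let-7i-5p was highest relative to let-7a-5p. For siSFPQ-3 this rests on replicate 1, at 1.64%. Its replicates 2 and 3, at 1.165% and 1.009%, were below every siNONO-3 library, the lowest of which was at 1.169%.

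**Figure D4:**
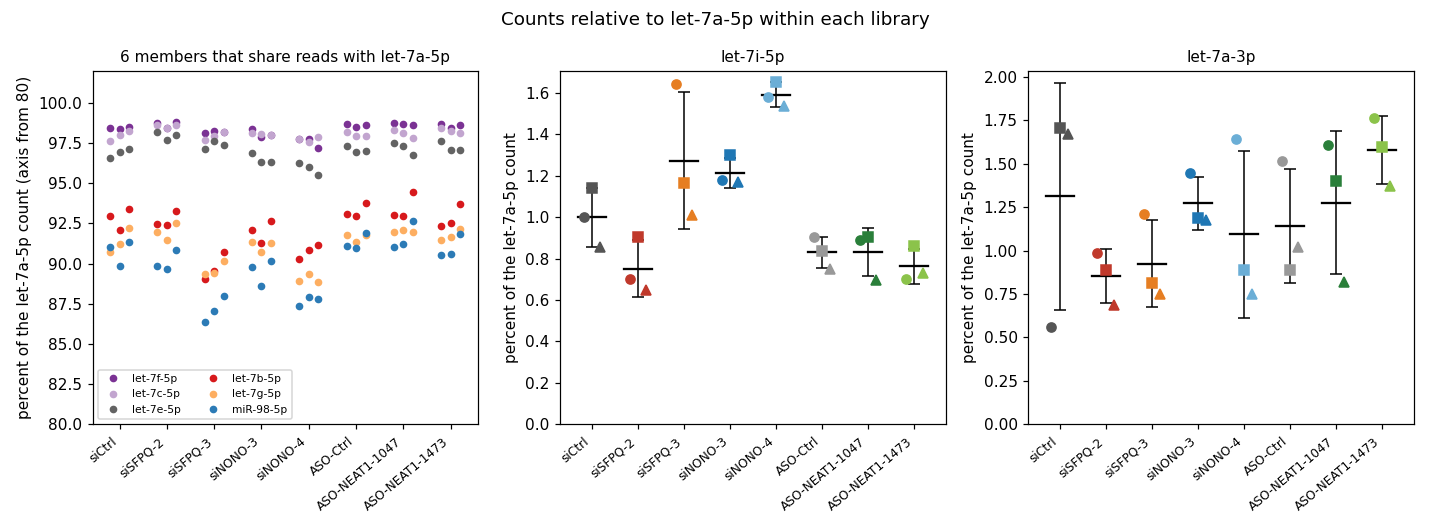
Counts as a percentage of the let-7a-5p count in the same library: 6 sharing members (left, axis from 80), let-7i-5p (middle) and let-7a-3p (right), by group, with the mean and SD (n = 3) as line and bars in the last 2 panels. let-7i-5p is at 1.54% to 1.65% in siNONO-4 and at 0.646% to 0.906% in siSFPQ-2, and siCtrl replicate 1 is the lowest let-7a-3p point, at 0.558%.

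Of the 10 other let-7 arm products listed, 9 were found by name and 3 passed the filter: let-7b-3p, let-7e-3p and let-7f-1-3p. In the SFPQ knockdown 2 of the 3 were lower and none higher, beside 22.7% of all tested miRNAs called lower. These were let-7b-3p (-1.27 ± 0.25, edgeR adjusted p = 0.000207) and let-7f-1-3p (-1.27 ± 0.23), each lower with either siRNA too. let-7e-3p was at 0.15 ± 0.47. The pair that fell has the seed of let-7a-3p, in capitals.
let-7b-3p: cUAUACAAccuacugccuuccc
let-7f-1-3p: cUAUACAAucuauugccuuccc
Both are rare, at 15 to 51 and 18 to 50 counts per library. Their means were also close, at 12.7 and 13.8 CPM of library totals in siCtrl and 6.98 and 6.76 in siSFPQ-3. With sequences this alike, they may not be separate measurements of each other or of the more abundant let-7a-3p. The SFPQ change was also lower than the NEAT1 change in both, by -1.46 ± 0.35 (edgeR adjusted p = 0.00307) and -1.55 ± 0.33. No arm product of the list passed in edgeR with NONO or NEAT1 knockdown (1 and 0 had an unadjusted p under 0.05), beside 1.6% and 0% of all tested miRNAs. let-7f-1-3p was at -0.51 ± 0.23 with NONO (edgeR adjusted p = 0.356).

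Some let-7 hairpins are transcribed with miR-99, miR-100 and miR-125 hairpins. Of 11 such partner products, 9 were tested, and 2 were lower and 1 higher in the SFPQ knockdown (median -0.10), beside 142 lower and 160 higher of all 626. The lower pair was miR-99a-5p and miR-100-5p, both at -1.29 ± 0.30, which had nearly the same counts and come from the host transcripts of let-7c and let-7a-2. miR-125b-5p, from those same transcripts, was at -0.10 ± 0.17. The siCtrl libraries were uneven in the lower pair, with 1065 to 6168 counts of miR-100-5p. On library totals miR-100-5p was at 1002 ± 826 CPM in siCtrl, 577 ± 101 in siSFPQ-2 and 579 ± 12.9 in siSFPQ-3 (SD). Its fall was not tested without single control libraries. In the let-7e transcript, miR-125a-5p was at 0.41 ± 0.22 and miR-99b-5p at 0.05 ± 0.28. The higher partner was miR-125a-3p, named after its value was seen, at 0.83 ± 0.24 (edgeR adjusted p = 0.00666). No partner passed in edgeR with NONO or NEAT1 knockdown (0 and 2 had an unadjusted p under 0.05), beside 1.6% and 0% of all tested miRNAs. Other miRNAs with the let-7 seed, miR-202-3p, miR-4458 and miR-4500, had at most 5 counts in any library and were not tested.

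The tested miRNAs outside these lists whose log2 levels most resembled let-7a-5p over the 24 libraries were miR-26b-5p (Pearson r = 0.87), miR-205-5p (0.86), miR-26a-5p (0.86), the MIR7151 3-prime arm product (0.85) and miR-95-3p (0.84). Their changes in the SFPQ knockdown were not of the same size. miR-26b-5p was at -0.26 ± 0.12 (edgeR adjusted p = 0.0794), miR-26a-5p at -0.21 ± 0.12 and miR-95-3p at -1.66 ± 0.29. Nearest to let-7i-5p were miR-7-5p (0.82), miR-195-3p (0.78) and miR-107 (0.77). Nearest to let-7a-3p were the MIR6844 3-prime arm product (0.96), miR-18b-5p (0.94) and miR-18a-5p (0.94). Among the members themselves, let-7a-5p had r = 0.92 with let-7d-5p, 0.65 with let-7i-5p and 0.57 with let-7a-3p, and let-7i-5p had r = 0.35 with let-7a-3p. These correlations are descriptions over libraries that share groups, depth and scaling.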

How the data were processed

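Small RNA was sequenced in 24 libraries made from 100 ng of total RNA with added spike-in oligonucleotides and a QIAseq kit, per the labels' protocols. The deposited values are raw counts per mature miRNA locus and for 52 spike-ins, made, per the file headers, with featureCounts of Subread 2.0.3. Bowtie 1.3.0, Trimmomatic 0.39, DESeq2 1.38.1, UMI-tools 1.1.1 and hg38 are named in the submitters' processing notes. Mismatch and multi-mapping settings, and whether reads with the same molecular identifier were collapsed, are not given in the sources used here. Depth statements therefore cover counting error only.

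The 2883 loci belong to 2652 mature miRNAs, and the locus with the largest total was kept for each. Names came from GENCODE release 29 and RefSeq by position, within 3 bases. Members whose counts differed by at most 10% in all libraries, directly or through a chain of members, at a mean of at least 20 counts were treated as sharing reads. edgeR 4.0.16 (R 4.3.3) filtered with filterByExpr (minimum count 10), scaled by TMM and fitted 1 term per group to all 24 libraries (16 residual degrees of freedom). Adjusted p-values (Benjamini-Hochberg, over 626 miRNAs, threshold 0.05) come from its quasi-likelihood test. Standard errors were obtained from the log2 fold change and F (their ratio, with the root of F). The test was checked on simulated counts. Pearson correlations were taken on log2 CPM (prior count 2). Ratios inside a library had 0.5 added to each count and were tested with SciPy 1.17.1.

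All 10 members were named, with at most 4 of each list by mean CPM, the 5 miRNAs most like let-7a-5p, and the 3 most like let-7i-5p and let-7a-3p. The members and lists were chosen with earlier results of these data known. Within each group, every pair of libraries differed beyond sampling noise. Alternatives were RLE, library or spike-in totals, other filters, DESeq2 1.42.0, a fold of at least 1.5, other loci or their sum, a sharing set counted as 1, the replicate number as a block, the compared groups alone, and leaving out libraries.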

Additional observations from a re-analysis of the deposited data

Results flagged for a closer look

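The test of the SFPQ change against the NEAT1 change differed for let-7a-3p, by -1.52 on the log2 scale (edgeR adjusted p = 0.000337). Every SFPQ library was below the siCtrl mean and every ASO-NEAT1-1473 library above the ASO-Ctrl mean, whereas ASO-NEAT1-1047 lay on both sides, with replicate 3, at 295 CPM, below it. The difference in change of let-7a-3p was -1.40 for siSFPQ-2 and -1.56 for siSFPQ-3, each against ASO-NEAT1-1473, and these were not tested.

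For the ratio of let-7i-5p to let-7a-5p, every siSFPQ-2 library was below the siCtrl mean and every siSFPQ-3, siNONO-3 and siNONO-4 library above it. siSFPQ-2 replicate 2, at 0.906%, and siSFPQ-3 replicate 3, at 1.01%, lay inside the siCtrl range of 0.856% to 1.14%. The log2 ratio was 0.74 higher with siSFPQ-3 than with siSFPQ-2, that is, between siRNAs against the same target. It differed by -0.71 between siSFPQ-2 and siNONO-3 and by -1.10 between siSFPQ-2 and siNONO-4. None of these differences was tested.

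For the ratio of let-7a-3p to let-7a-5p, the change with siSFPQ-2 differed from that with siNONO-3 by -0.58 and from that with ASO-NEAT1-1473 by -0.97, both untested. The siCtrl mean in this ratio includes replicate 1, at 0.558% against 1.71% and 1.67%.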

How the results depend on the processing

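The SFPQ knockdown kept 9 or 10 members past the threshold under every alternative that counts 10 members, and 4 of 4 with the sharing set counted as 1, as did siSFPQ-2, siSFPQ-3 and SFPQ against NONO. Leaving out single libraries gave 2 to 10 members for siSFPQ-2 and 0 to 1 for NONO and siNONO-4. The 1 there, without siCtrl replicate 1 or without both libraries that stand apart, was let-7a-3p. siSFPQ-2 had 2 members on library totals or with the compared groups alone, siSFPQ-3 had 4 with library totals and 1 with spike-in totals, and SFPQ against NONO had 3 on either. The SFPQ change against the NEAT1 change (1 member) had 3 with RLE, a mean of at least 10 CPM, DESeq2 or the sharing set as 1, 2 with the smallest locus or the compared groups alone, 10 with the replicate block, and 1 to 10 without single libraries. Same-numbered libraries of different groups correlated in their deviations at a median of 0.16 (-0.42 to 0.62, 52 of 84 over 0.1), and others at -0.09 (37 of 168 over 0.1). Same-numbered libraries thus tended to deviate alike, though not in every pair. For example, let-7a-5p was highest in replicate 3 in every group except siCtrl. The main fit has no replicate term and does not take this into account, so the replicate block is given as an alternative. Same-numbered correlations of siCtrl with other groups ran from -0.42 to 0.41, and its replicate 1 had 0.63 with ASO-NEAT1-1047 replicate 3. The numbers of siCtrl thus need not line up with those of other groups, and the block may be unsuited to comparisons with siCtrl. The replicate block changed no other count of members by over 1.5 times.

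Some directions turned, none of them of a value past the threshold. siSFPQ-3 against siSFPQ-2 became 0.27 for let-7a-5p, 0.34 for let-7a-3p and 0.20 for let-7d-5p on spike-in totals, and without single libraries ran from -0.392 to 0.00803 for let-7a-5p and from -0.276 to 0.0362 for let-7a-3p. let-7i-5p with siNONO-3 (0.02) became -0.068 with RLE, -0.067 with DESeq2, -0.063 with spike-in totals, -0.000700 with no filter, -0.078 at a mean of at least 10 CPM, -0.012 with the replicate block, -0.041 with the smallest locus, -0.050 with the sharing set as 1, and ran from -0.17 to 0.11 without single libraries. let-7a-3p with NEAT1 ran from -0.013 to 0.30. The log2 ratio of let-7i-5p to let-7a-5p became 0.33 with siSFPQ-3 only and ran from -0.20 to 0.070 without single libraries. The causes were not tested. let-7d-5p had the fewest counts of the members, 180 to 629 per library.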
